A study of Mus musculus with 6 samples.

Results

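Unprocessed pseudogenes are gene copies that arose by duplication or insertion of DNA, without passing through a spliced and reverse-transcribed mRNA, and that are annotated as no longer coding for a protein. Those expressed in the adult mouse heart were taken from a table of counts and of CPM, which are counts divided by the total of the library and scaled to a common size, as every row annotated as unprocessed pseudogene or transcribed unprocessed pseudogene with a mean of at least 0.5 CPM over 3 control hearts. The choice gave 27 pseudogenes of 78409 rows, 13 of the first annotation and 14 of the second, out of 3142 rows with either annotation, of which 312 had any count. Since they were chosen by their control values, their control levels are given as a description. The last 3 above the minimum were Gm15578 at 0.572, Vdac3-ps1 at 0.547 and Scp2-ps2 at 0.522 CPM, and the first 3 below it were Zfp125 at 0.480, Gm49376 at 0.472 and Gvin-ps1 at 0.426 CPM. The libraries came from whole hearts of mice aged 11 months, 3 with Ybx1 deleted in cardiomyocytes (Ybx1cmKO, called knockout here) and 3 littermate controls. The Cre driver, the floxed allele and the controls' own alleles are not named in the labels. Each library is 1 heart, and the cells other than cardiomyocytes keep the gene under such a design.

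Pseudogenes of mitochondrial origin form a family of their own. Pieces of mitochondrial DNA have been inserted into nuclear chromosomes throughout evolution, and an insertion that is recent still matches the mitochondrial genome closely. The mitochondrial genome encodes subunits of the respiratory chain (the mt-Nd genes of complex I, mt-Cytb of complex III, mt-Co1 to mt-Co3 of complex IV), the ATP synthase subunits mt-Atp6 and mt-Atp8, rRNAs and tRNAs. Its transcripts are abundant in the heart, where cardiomyocytes are packed with mitochondria. A sequencing read that lies inside a stretch shared by a nuclear copy and the mitochondrial gene carries no base that tells the 2 places apart.

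The libraries held 12270796 to 15141525 counts. Ybx1, a gene for an RNA-binding cold-shock-domain protein, measured 858, 653 and 932 CPM in control hearts 1, 2 and 3, against 222, 155 and 131 in knockout hearts 1, 2 and 3. Values per heart are given in this order throughout. The groups did not overlap, and the log2 fold change was -2.40 (95% confidence interval -3.01 to -1.79), and edgeR's quasi-likelihood test gave it an adjusted p of 0.148 over the whole table. All 8 cardiomyocyte markers were detected in each heart, from Actn2 at 253 to 345 CPM to Myh6 at 3334 to 6099 CPM. Knockout heart 3 stood apart, with 10.7% of its counts in the mitochondrial rRNAs against 20.5% to 26.3% in the other 5 hearts.

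Of the 27 pseudogenes, 10 matched a mitochondrial mRNA gene over at least 50% of their length in a sequence search of the GENCODE M21 transcripts (GRCm38), which held 26 of the 27. Together they matched 8 of the 13 mitochondrial mRNA genes, and none of these copies was of mt-Nd1, mt-Nd5, mt-Nd6, mt-Cytb or mt-Atp8. They lie in 2 blocks, both on the minus strand of their chromosome. The block on chromosome 1 spans 4663 bases and holds 7 copies, in the order Gm28439 (of mt-Nd4), Gm10222 (of mt-Nd4l), Gm28438 (of mt-Nd3), Gm28437 (of mt-Co3), Atp6-ps (of mt-Atp6), Gm28661 (of mt-Co2) and Gm29216 (of mt-Co1). The block on chromosome 2 spans 3243 bases within the myosin gene Myo3a, which runs on the other strand, and holds Gm13341 (of mt-Co2), Gm13340 (of mt-Co1) and Gm13339 (of mt-Nd2). Positions are not given because the files use mm39, while the transcripts are of GRCm38. A further 5 rows of these annotations, outside the 27, matched the mitochondrial genes at 74.1% to 81.6% identity. Among them was Gm28925, which matched mt-Atp8 at 81.4%. Of these, 4 held no count in any library, which allows up to 0.198 to 0.244 CPM per library, and the fifth held 1 count in all.

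The chromosome 1 copies are nearly letter for letter the mitochondrial genes. The pair below shows the copy of mt-Nd3, which encodes a small complex I subunit, over the first 150 bases, with the base that differs in capitals (T3C, with positions counted from 1 at the first base of the mt-Nd3 transcript). The 345 bases of the copy end 3 bases before the 348 of mt-Nd3, and the longest identical stretch is 342 bases.
mt-Nd3: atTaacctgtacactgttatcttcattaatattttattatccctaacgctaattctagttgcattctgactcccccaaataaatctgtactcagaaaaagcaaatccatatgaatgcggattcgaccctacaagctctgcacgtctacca
Gm28438: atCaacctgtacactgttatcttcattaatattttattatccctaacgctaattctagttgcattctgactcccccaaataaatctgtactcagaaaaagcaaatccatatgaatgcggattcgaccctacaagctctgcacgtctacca

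Gm10222 shows a copy with no difference at all: its 294 bases are the first 294 of the 297 of mt-Nd4l, another complex I subunit.
Gm10222: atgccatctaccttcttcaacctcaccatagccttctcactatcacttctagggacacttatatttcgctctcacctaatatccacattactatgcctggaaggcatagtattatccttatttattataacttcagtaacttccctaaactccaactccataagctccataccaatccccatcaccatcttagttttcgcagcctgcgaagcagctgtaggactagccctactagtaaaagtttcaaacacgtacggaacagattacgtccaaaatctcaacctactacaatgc

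The copies on chromosome 2 have diverged further. A window of 150 bases of mt-Co2 (bases 457 to 606), which encodes a core subunit of cytochrome c oxidase, is printed below with its copies from both chromosomes. Capitals in mt-Co2 and Gm13341 mark the 9 bases of the window at which these differ, such as T462C and A492C. Gm28661 has no difference from mt-Co2 in the window or in its 681 bases, whereas Gm13341 has 16 in all and 1 gap.
mt-Co2: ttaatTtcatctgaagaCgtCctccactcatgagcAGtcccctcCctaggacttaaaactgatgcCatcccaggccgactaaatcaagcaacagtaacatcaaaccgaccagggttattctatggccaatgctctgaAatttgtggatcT
Gm28661: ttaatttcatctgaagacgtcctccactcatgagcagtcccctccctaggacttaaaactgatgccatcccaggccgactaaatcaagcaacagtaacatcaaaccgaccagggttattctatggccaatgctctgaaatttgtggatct
Gm13341: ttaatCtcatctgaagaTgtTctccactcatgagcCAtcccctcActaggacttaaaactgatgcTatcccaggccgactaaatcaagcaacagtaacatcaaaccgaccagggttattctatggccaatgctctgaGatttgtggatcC

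Over their aligned lengths, 5 of the chromosome 1 copies were 100% identical to the mitochondrial gene: Gm10222, Atp6-ps over 678 of 681 bases, Gm28437 over 783 of 784, Gm28661 over 681 of 684, and Gm28439, whose 876 bases are the first 876 of the 1378 of mt-Nd4. Gm28438 was at 99.7%. Gm29216 holds 483 bases of the end of mt-Co1 (bases 1063 to 1545) with 1 mismatch, or 99.8% identity, and its longest identical stretch is 479 bases. On chromosome 2, Gm13340 was at 97.6% identity over all 1545 bases of mt-Co1, with 37 mismatches. Gm13339 was at 96.7% over the last 510 of the 1038 bases of mt-Nd2 (bases 529 to 1038), and Gm13341 at 95.9%. Their longest identical stretches were 148, 129 and 173 bases, so a short read could still lie within a stretch that the copy and the gene share.

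The counts of the 4 identical copies that cover nearly the whole mitochondrial gene equalled the counts of that gene almost read for read. Gm28437 held 545695, 729832 and 749357 counts in the controls, against 746469, 864259 and 779440 in the knockouts. Its mitochondrial partner mt-Co3, like mt-Co2 a core subunit of cytochrome c oxidase, differed from it by 22.2 to 46.6 counts per library, always in the direction of more counts in the copy. Gm28437 was therefore at 100.004% to 100.005% of mt-Co3 in each of the 6 hearts. Gm28661 held 115 to 189.75 counts more than mt-Co2, or 100.02% to 100.03% of it. Atp6-ps held 286 to 505.5 counts more than mt-Atp6, a subunit of the proton channel of ATP synthase, or 100.1% to 100.2% of it. Gm10222 differed from mt-Nd4l by -34.6 to -60.0 counts and held 98.4% to 99.0% of it. The coefficient of variation of these 4 ratios over the 6 hearts was at most 0.210%, while that of the copies' own CPM was 9.29% for Gm28437, 9.49% for Gm28661, 11.9% for Atp6-ps and 19.1% for Gm10222. Counts of such copies are uncertain as measures of the nuclear locus. Transcripts of the locus and of the mitochondrion cannot be told apart in them, and the counting of reads that map to several places is not described in the labels.

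**Figure D1:**
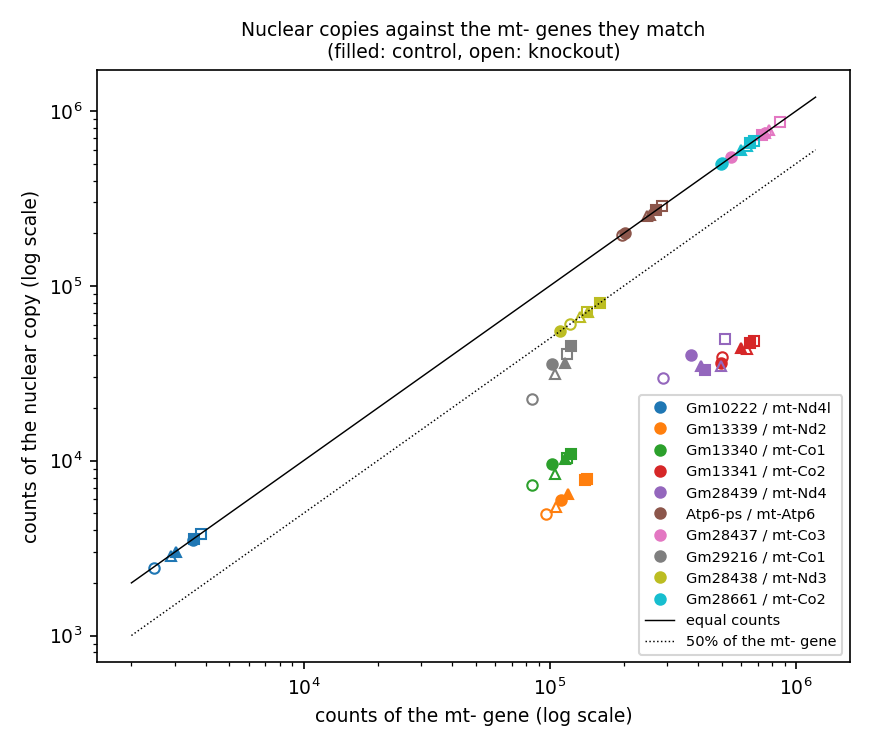
Counts of each nuclear mitochondrial copy (vertical axis, log scale) against counts of the mitochondrial gene it matches (horizontal axis, log scale), 1 point per heart, with filled points for control, open points for knockout, and circles, squares and triangles for hearts 1, 2 and 3. The points of Gm28437, Gm28661, Atp6-ps and Gm10222 lie on the line of equal counts, those of Gm28438 on the line at 50%, and those of the other 5 copies below it.

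The remaining 6 copies held less than the mitochondrial gene. Gm28438, with its single differing base, held 49.95% to 49.98% of the counts of mt-Nd3 in all 6 hearts, with a coefficient of variation of 0.0240% for the ratio against 11.8% for its CPM. Gm29216 held 35.3%, 37.3% and 31.4% of the counts of mt-Co1, the catalytic subunit of cytochrome c oxidase, in the controls, against 26.8%, 34.7% and 29.8% in the knockouts. The groups overlapped. Gm28439 held 7.02% to 10.8% of mt-Nd4. Although its bases are identical to the first part of mt-Nd4, its share was among the lowest and its ratio the most variable of the 10, with a coefficient of variation of 16.9%. The chromosome 2 copies held 8.002% to 9.46% of mt-Co1 (Gm13340), 6.88% to 7.80% of mt-Co2 (Gm13341) and 5.12% to 5.55% of mt-Nd2 (Gm13339). These are shares of counts and are not corrected for the length of the copy.

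The 10 ratios were compared between knockout and control hearts by an exact two-sided permutation test, whose smallest possible p with 3 hearts in each group is 0.1. The groups did not overlap for 2 of them, and for any single ratio such a split has a probability of 0.1 by chance alone. Atp6-ps was at 100.17% ± 0.0137 of mt-Atp6 in control and 100.15% ± 0.00621 in knockout hearts (SD, n = 3 each; exact p = 0.1, and 0.4 after Benjamini-Hochberg adjustment over the 10). Gm13340 was at 9.09% ± 0.328 of mt-Co1 in control and 8.44% ± 0.396 in knockout hearts (exact p = 0.1, adjusted 0.4). The other 8 ratios overlapped between the groups, and for Gm13341 the means were 7.302% ± 0.0979 and 7.2999% ± 0.468.

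**Figure D2:**
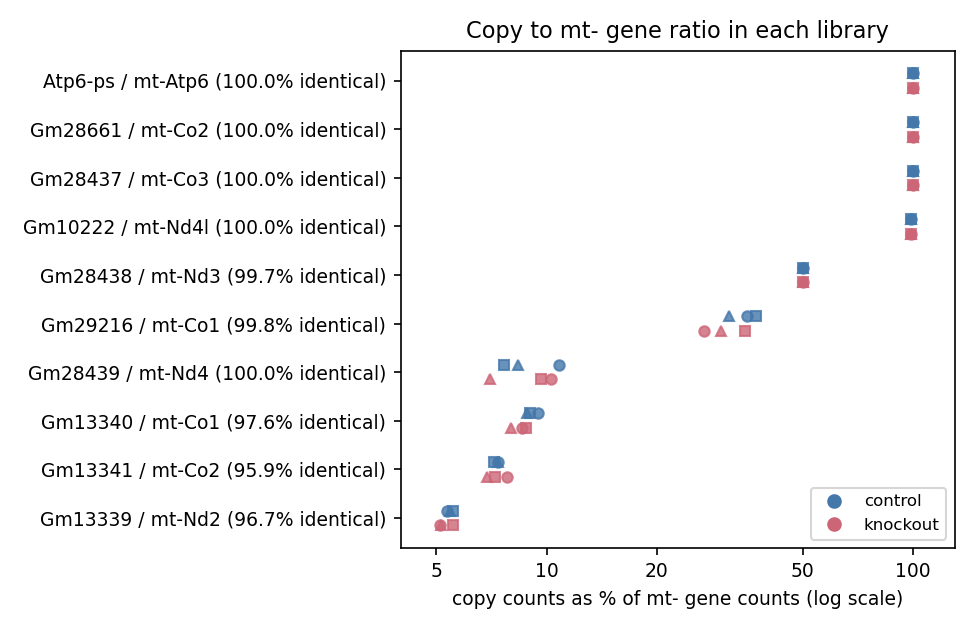
Counts of each copy as a percent of the counts of its mitochondrial gene (log scale) in each heart, with blue for control, red for knockout, circles, squares and triangles for hearts 1, 2 and 3, and the identity over the aligned bases beside the name. Of the copies, 4 sit at 98.4% to 100.187%, Gm28438 at about 49.97%, and the 3 copies on chromosome 2 between 5.12% and 9.46%.

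A search of the whole table for rows with the same counts as a copy in every library (within 0.05 on the log2 scale, chosen after the values were seen) returned, besides the mitochondrial genes, 2 unnamed lncRNA rows that are not in GENCODE M21. ENSMUSG00000138098 held the counts of Gm28438 in each heart, with 55155 against 55123 in control heart 1 and 60510 against 60474 in knockout heart 1. The pair together came to 99.93% to 99.997% of mt-Nd3. ENSMUSG00000143474 held the counts of Gm13339, with 5923 against 5945.5 in control heart 1, and the pair together came to 10.2% to 11.1% of mt-Nd2. Both copies thus have a further row in the table that carries nearly the same values under another annotation.

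Adding the copies' counts to those of the mitochondrial genes changes the order of the mitochondrial mRNAs. On the scale of CPM per kilobase, control means as deposited were highest for mt-Co3, at 63878 ± 6415, with mt-Co2 at 63346 ± 6507 (SD, n = 3). With copies included mt-Co2 was at 131331 ± 13427 and mt-Co3 at 127758 ± 12830, and these neighbours differed by less than their spread on both scales. The sums were 2.07 times the deposited level for mt-Co2, 2.000 times for mt-Co3, 2.002 times for mt-Atp6, 1.99 times for mt-Nd4l, 1.4996 times for mt-Nd3 and 1.44 times for mt-Co1. For mt-Nd4 and mt-Nd2 they were 1.09 and 1.05 times. mt-Atp6 moved from rank 6 of 13, at 26447 ± 2797, to rank 3, at 52940 ± 5602. mt-Nd1, a core complex I subunit with no copy among the chosen pseudogenes, moved from rank 3 to rank 5 at an unchanged 42775 ± 3812. mt-Cytb, the cytochrome b of complex III, moved from rank 4 to rank 6 at 33786 ± 3397. mt-Nd3 went from rank 5 to rank 4, where its 44059 ± 6377 was within the spread of mt-Nd1. The sums leave out the lncRNA rows that carry nearly the counts of Gm28438 and Gm13339. Adding those rows would raise mt-Nd3 and mt-Nd2 further, so the level and rank of mt-Nd3 with copies depend on that choice. At the low end, mt-Nd4l changed places with mt-Nd5, from 859 ± 138 to 1708 ± 275 against 1490 ± 139. Whether the copies' counts belong to the mitochondrial genes cannot be told from these values, so both orders are given. The counting of reads that map to several places is not described. A read may therefore have been counted in full in both rows, and the sums would then hold it more than once. This was not tested.

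**Figure D3:**
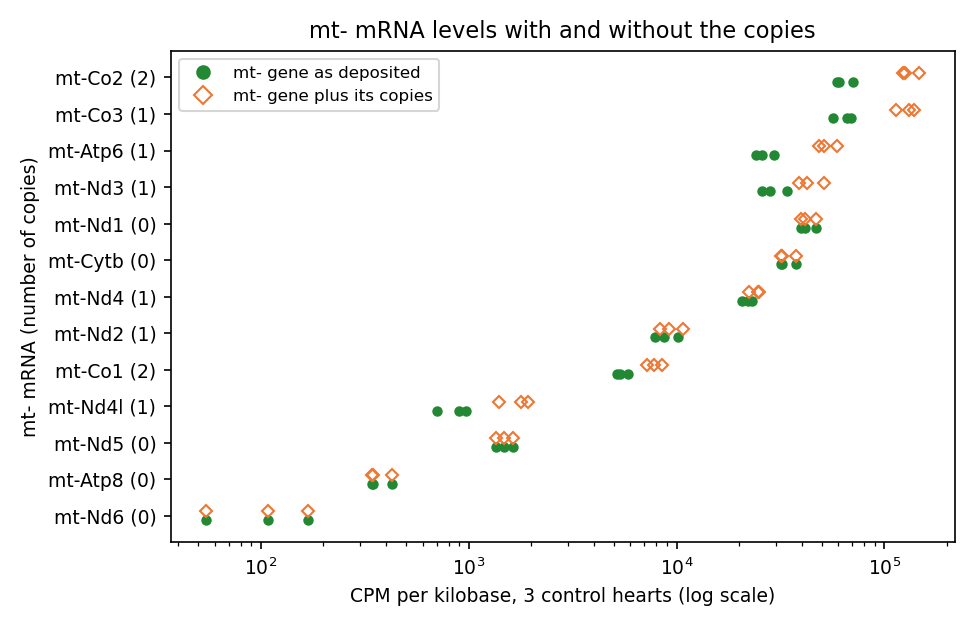
Level of each mitochondrial mRNA in CPM per kilobase (log scale) in the 3 control hearts, as deposited (filled) and with the counts of its nuclear copies added (open), with the number of copies in brackets. mt-Co2 and mt-Co3 average 131331 and 127758 with their copies, while the 5 mRNAs without a copy among the chosen pseudogenes stay in place.

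The pseudogenes held 11.6%, 13.97% and 12.5% of all counts in the controls, against 11.98%, 14.03% and 12.2% in the knockouts. By Wilson's method the 95% interval of each share is at most ± 0.0185 percentage points, for counting error only. The means were 12.7% ± 1.18 in control and 12.7% ± 1.12 in knockout hearts (SD, n = 3 each), a difference of 0.0573 points. Leaving out 1 heart turned its sign to -0.583 without knockout heart 2, -0.466 without control heart 1 and -0.0582 without control heart 3. The difference was 0.696 without control heart 2, 0.441 without knockout heart 1 and 0.315 without knockout heart 3. With the mitochondrial genes left out of the total, the difference became -2.21 points. On that denominator control heart 2 was the highest heart, knockout heart 3 was the lowest, and the groups overlapped. In knockout heart 3 the mitochondrial genes held 35.2% of counts, against 44.7% to 54.1% in the other hearts. The -2.21 was not recomputed with single hearts left out, so how far it rests on these hearts was not tested. In whole hearts, fewer cells of a type and less RNA per cell cannot be told apart. Of these counts 99.97% to 99.98% belonged to the 10 mitochondrial copies, and the 3 copies Gm28437, Gm28661 and Atp6-ps held 86.9% to 89.7% of the copies' counts. The other 17 pseudogenes together held 0.00243% to 0.00338% of a library.

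The mitochondrial genes, taken as the 37 genes whose symbol starts with mt-, held 48.2%, 54.1% and 44.7% of counts in the controls against 46.6%, 49.1% and 35.2% in the knockouts. With the copies added, the shares were 59.9%, 68.1%, 57.2%, 58.6%, 63.1% and 47.4% in the same order, and a read counted in both rows would be held more than once in them. The copies held 241, 258 and 278 counts for every 1000 of the mitochondrial genes in the controls, against 257, 286 and 348 in the knockouts. The difference of the means was 37.6, and it was 12.2 without knockout heart 3 and 57.5 without knockout heart 1. The denominator includes the rRNAs, which have no copy among the 27 and were at their lowest in knockout heart 3. Set against the 13 mitochondrial mRNAs instead, the copies held 491, 504 and 514 counts per 1000 in the controls against 540, 514 and 499.9 in the knockouts, and the groups overlapped. Knockout heart 3 was the highest of the 6 on the first scale and the second lowest on the other.

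**Figure D4:**
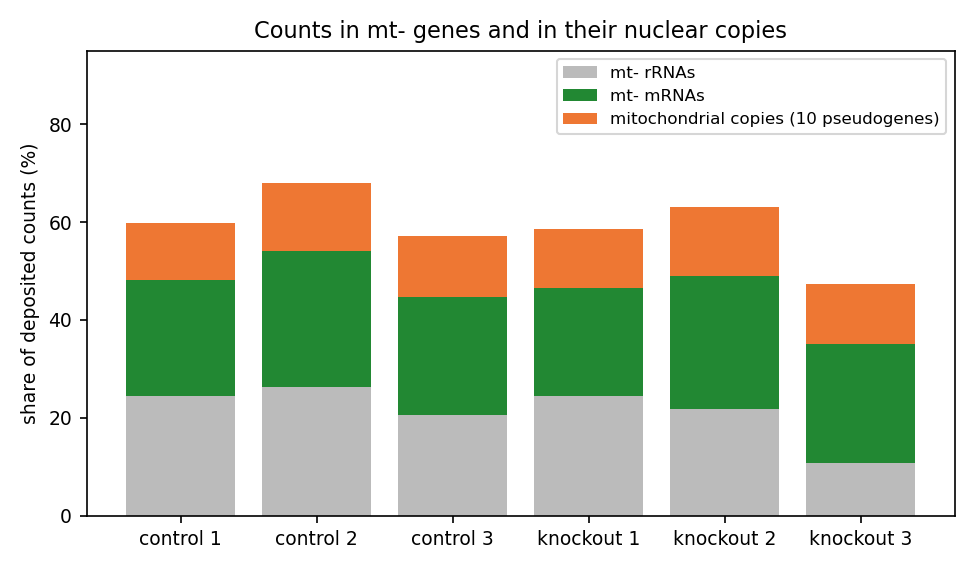
Percent of the deposited counts of each heart held by the mitochondrial rRNAs (grey), the mitochondrial mRNAs (green) and the 10 nuclear copies (orange), stacked from 0. The copies hold 11.6% to 14.03% in every heart, while the rRNAs range from 10.7% in knockout heart 3 to 26.3% in control heart 2.

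Deposited counts that are not whole numbers were common among the copies. Of their 60 values, 57 (95%) were not whole, and of the 78 values of the mitochondrial mRNAs 73 (93.6%). Among nuclear protein-coding genes with the same control minimum, 17.9% of 74045 values were not whole. These genes were not matched to the copies for level, and the copies had control means of 252 to 50082 CPM. The other 17 pseudogenes had 73 of 102 values not whole (71.6%), and the 14 genes they resemble most had 58 of 84 (69.0%). The choice of the pseudogenes did not use this property.

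Between knockout and control hearts, no mitochondrial copy passed edgeR's test. Of the 27 pseudogenes 23 passed the filter on low values and were tested, and 0 were called at an adjusted p under 0.05, against 0.0% of all 13717 tested genes. At an unadjusted p under 0.05 there was 1 of 23, 4632415L05Rik, against 5.14% of all genes. The 10 copies had log2 fold changes from -0.58 for Gm29216 to -0.01 for Gm28437, with a median of -0.29. With TMM scaling 10 of 10 were below 0, although Gm28437 was above 0 on deposited CPM without scaling (0.15 in limma), with no filter on low values (0.01) and without control heart 2 (0.17), knockout heart 1 (0.01) or knockout heart 3 (0.11), and Gm28439 without knockout heart 3 (0.01). Of the 23 tested pseudogenes 18 were below 0, against 48.9% of all genes, and 7 of the 23 changed sign under at least 1 other setting. The median of the 23 was -0.25, and it was -0.47 without knockout heart 2 and -0.12 without control heart 2. The 4 copies with ratios near 100% and Gm28438 are not separate observations from their mitochondrial genes, with a coefficient of variation of the ratio of at most 0.210%. The 13 mitochondrial mRNAs also had 13 log2 fold changes below 0, with 0 at an unadjusted p under 0.05, and Gm28437 and mt-Co3 had the same value of -0.01. Without scaling mt-Co3 was higher in the knockouts, at 70547 ± 4792 against 63878 ± 6415 CPM per kilobase (SD, n = 3 each). In an unscaled comparison the median of all genes lay at 0.14, against 0.01 with TMM scaling.

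Per heart, Gm29216 measured 2927, 3368 and 2501 CPM in the controls against 1685, 2783 and 2069 in the knockouts. Knockout heart 2 lay within the control range and the other knockout hearts below it. The log2 fold change of -0.58 (SE 0.34, 95% interval -1.35 to 0.20, edgeR adjusted p = 0.694) ranged from -0.96 without knockout heart 2 to -0.33 without control heart 2, and was -0.45 without knockout heart 3. Gm13340, the other mt-Co1 copy, measured 785, 811 and 703 CPM in the controls against 537, 704 and 555 in the knockouts, again with knockout heart 2 inside the control range. Its log2 fold change was -0.50 (interval -1.13 to 0.12; -0.79 without knockout heart 2 and -0.34 without control heart 2), and that of mt-Co1 itself -0.40 (interval -1.07 to 0.26). On the same scale, the values of the other copies were -0.42 for Gm13339, -0.41 for Gm10222, -0.33 for Gm28438, -0.25 for Atp6-ps, -0.22 for Gm28661 and for Gm13341, and -0.15 for Gm28439. Each interval included 0. These values moved with single hearts. Without control heart 2 they were -0.17 for Gm13339, -0.26 for Gm10222, -0.08 for Gm28438, -0.04 for Atp6-ps, -0.01 for Gm28661, -0.02 for Gm13341 and -0.12 for Gm28439. Without knockout heart 2 they were further from 0, at -0.79, -0.75, -0.51, -0.53, -0.45, -0.44 and -0.55 in the same order, and without knockout heart 3 they were -0.24, -0.25, -0.215, -0.15, -0.13, -0.10 and 0.01. The other 3 omissions gave values between these extremes for each of the 7 copies.

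The other 17 pseudogenes had control means between 0.522 and 3.67 CPM, far fewer counts than the copies. For 14 of them a related gene, here called the parent, was found by sequence. The first group resembles immune genes. Gvin-ps7 is 91.8% identical to Gvin1, a very large interferon-inducible GTPase, and measured 3.87, 4.58 and 2.56 CPM in the controls against 4.93, 3.22 and 1.58 in the knockouts. Ifi203-ps is 95.2% identical to Ifi203, an interferon-activated gene of the HIN-200 family, and measured 2.91, 3.90 and 2.002 CPM in the controls against 3.66, 1.86 and 0.842 in the knockouts. In both, knockout heart 1 was high and knockout heart 3 lowest of the 6. The log2 fold changes were -0.36 for Gvin-ps7, which was 0.03 without knockout heart 3 and -0.73 without knockout heart 1, and -0.67 for Ifi203-ps, which ranged from -1.25 without knockout heart 1 to -0.23 without knockout heart 3. The parents had log2 fold changes of -0.32 (Gvin1) and -0.52 (Ifi203), neither past the threshold.

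A second group resembles genes of ribosomes and translation. 4632415L05Rik is 76.4% identical to Rrs1, a regulator of ribosome assembly, the lowest identity of the 14. It measured 2.20, 1.82 and 1.51 CPM in the controls against 1.30, 1.14 and 0.826 in the knockouts, and each knockout value was below each control value. Its log2 fold change was -0.89 (SE 0.37, 95% interval -1.72 to -0.05), with an unadjusted p of 0.0405 and an adjusted p of 0.694 in edgeR's test, and it ranged from -1.07 to -0.62 when 1 heart was left out. The counts behind it were 12.5 to 27.0 per library. The parent Rrs1 measured 9.13, 5.35 and 11.6 CPM in the controls against 12.9, 10.03 and 21.99 in the knockouts, with a log2 fold change of 0.62 (interval 0.01 to 1.24, adjusted p = 0.694). The difference between the pseudogene and its parent was not tested. Gm43712 is 98.9% identical to Eef1b2, a subunit of the elongation factor complex, and lies within Nup210l on the same strand. It measured 2.97, 3.23 and 3.27 CPM in the controls against 3.90, 2.696 and 3.17 in the knockouts, with a log2 fold change of -0.14 that was 0.03 in limma on unscaled CPM, -0.25 without knockout heart 1 and -0.0039 without control heart 2. Gm15578 is 88.4% identical to the ribosomal protein gene Rpl21, lies within Negr1, and averaged 0.572 ± 0.151 CPM in the controls against 0.488 ± 0.131 in the knockouts (SD, n = 3 each).

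The third group resembles genes of the cytoskeleton and of transcription. Mrip-ps is 99.8% identical to Mprip, which encodes a protein that binds myosin phosphatase. It measured 1.26, 1.11 and 1.24 CPM in the controls against 1.19, 0.785 and 0.286 in the knockouts. With TMM scaling each knockout value was below each control value, whereas on deposited CPM knockout heart 1 lay within the control range. The log2 fold change of -0.83 (interval -2.0 to 0.34) was -0.36 without knockout heart 3 and -1.25 without knockout heart 1, while that of Mprip was -0.07. 5830417I10Rik is 99.0% identical to Gon4l over its best matching block, 2896 of its 6190 bases, and overlaps 1500004A13Rik on the opposite strand. It measured 1.88, 1.70 and 1.33 CPM in the controls against 2.20, 1.223 and 0.767 in the knockouts, with a log2 fold change of -0.37 that was -0.01 without knockout heart 3 and -0.80 without knockout heart 1. Gm19196 is 95.7% identical to Taf1b, a subunit of the RNA polymerase I promoter factor. It measured 1.20, 0.223 and 1.205 CPM in the controls against 0.910, 0.938 and 1.52 in the knockouts, and its log2 fold change of 0.20 was -0.20 without control heart 2, which was the lowest of the 6, and 0.35 without knockout heart 1.

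The last group with a parent resembles genes of metabolism and transport. Gm26712 is 217 bases that match Pyurf at 100% because it overlaps that gene on the same strand, so reads of the pair cannot be separated. It measured 3.18, 1.71 and 4.03 CPM in the controls against 2.90, 3.34 and 8.65 in the knockouts, and its log2 fold change of 0.58 (interval -0.33 to 1.49), the highest of the 23, was 0.04 without knockout heart 3. Pyurf was at 25.9 CPM in knockout heart 3 as well, its highest of the 6. Mfsd4b3-ps is 87.7% identical to the transporter gene Mfsd4b1 and overlaps Mfsd4b5 on the same strand. It measured 0.448, 0.445 and 1.07 CPM in the controls against 1.08, 0.717 and 1.222 in the knockouts (log2 fold change 0.34, and 0.12 without control heart 1 or 0.19 without control heart 2). Scp2-ps2 is 99.6% identical to Scp2, a sterol carrier protein of peroxisomes, and measured 0.584, 0.408 and 0.574 CPM in the controls against 1.11, 0.660 and 0.649 in the knockouts. On deposited CPM each knockout value was above each control value, for 1 of the 27 pseudogenes (Scp2-ps2) against 4.83% of the genes with the same control minimum, and each was below for 1 of the 27 (4632415L05Rik) against 4.06%. Scp2-ps2 did not pass the filter on low values, nor did Vdac3-ps1 (99.5% identical to the channel gene Vdac3), Gm15578 or Gm20656. Gm20656 is 98.9% identical to Gmps, the GMP synthase, over its best matching block, 276 of its 518 bases. These 4 have no test in the main fit. With the minimum at 0.5 CPM in 3 libraries, or with no filter, all 27 pseudogenes were tested and 0 were called. Gm20656 averaged 0.851 ± 0.289 CPM in the controls against 0.930 ± 0.284 in the knockouts, and Vdac3-ps1 averaged 0.547 ± 0.203 against 0.525 ± 0.160 CPM (SD, n = 3 each).

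No parent was found for 2310040G07Rik, C920006O11Rik or Gm52999. 2310040G07Rik overlaps Ppat, an enzyme gene of purine synthesis, on the opposite strand, and the protocol describes no step that marks strand, so its counts are uncertain. It measured 2.93, 1.30 and 2.51 CPM in the controls against 1.78, 1.64 and 3.83 in the knockouts, with a log2 fold change of -0.05 that ranged from -0.44 without knockout heart 3 to 0.12 without knockout heart 1. C920006O11Rik measured 1.997, 1.15 and 1.79 CPM in the controls against 1.63, 1.09 and 1.52 in the knockouts, and Gm52999 measured 0.693, 0.742 and 1.10 against 0.855, 1.47 and 1.222. Both overlapped between the groups, with log2 fold changes of -0.37 and 0.38, the latter 0.19 without control heart 1. Gm16332, described here by its own values alone, overlaps Gm5837 on the same strand. It measured 1.85, 1.47 and 2.17 CPM in the controls against 4.45, 2.14 and 1.17 in the knockouts, so 1 knockout heart was above and 1 below all controls, and its log2 fold change of 0.33 became -0.25 without knockout heart 1 and 0.73 without knockout heart 3. Counts of 5830417I10Rik and Scp2-ps2 are uncertain in the same way as those of 2310040G07Rik. They overlap 1500004A13Rik and Gm47162 on the opposite strand. Counts of Gm16332, Gm43712, Gm15578 and Mfsd4b3-ps may hold reads of the gene that each overlaps on its own strand.

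**Figure D5:**
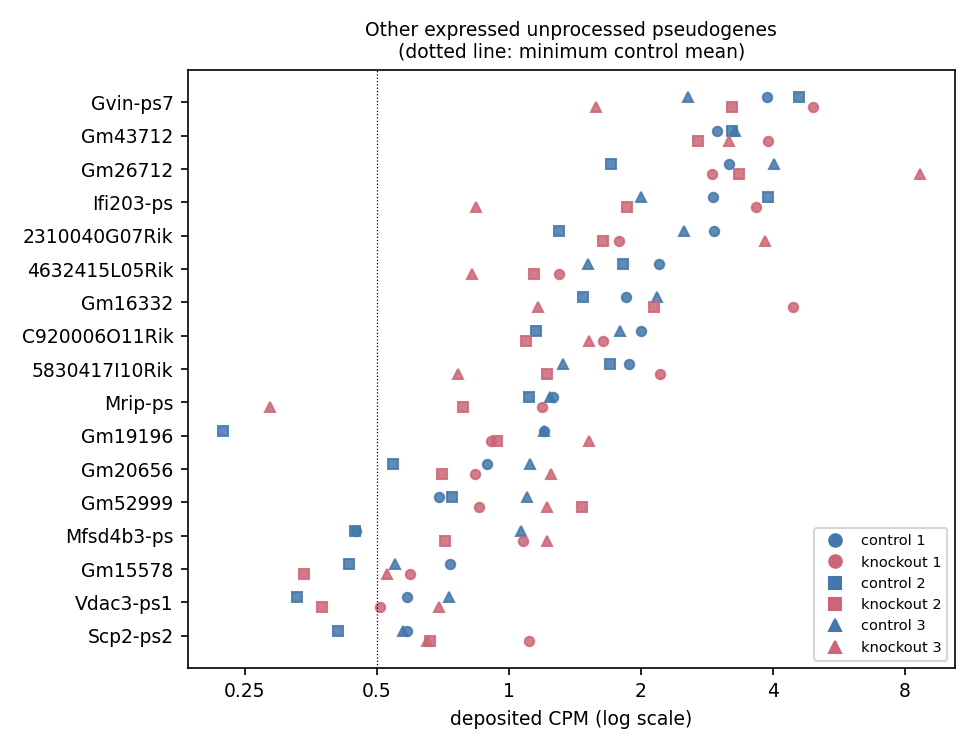
Deposited CPM (log scale) of the 17 expressed unprocessed pseudogenes that are not mitochondrial copies, with blue for control, red for knockout, circles, squares and triangles for hearts 1, 2 and 3, and a dotted line at the minimum control mean of 0.5 CPM. The groups are apart for 4632415L05Rik (below) and Scp2-ps2 (above). Heart 3 of the knockout group is the highest or lowest of the 6 for 11 of the 17, among them Gm26712, Ifi203-ps, Gvin-ps7 and Mrip-ps. Control heart 2 is so for 8 of the 17 and each other heart for 1 to 5. The share over all genes was not computed. These CPM are unscaled, and knockout heart 3 and control heart 2 had the highest and lowest TMM factors, 1.19 and 0.806. The counts per heart are therefore not read as a trait of these pseudogenes.

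Over the 13 tested pseudogenes that are not mitochondrial copies, 8 log2 fold changes were below 0 and the median was -0.14. With TMM scaling 2 of the 13, 4632415L05Rik and Mrip-ps, had each knockout value below each control value, against 5.82% of all tested genes, and 0 had each above, against 6.26%. The parents of 14 pseudogenes were also tested, and 0 passed the threshold. The 95% intervals were wide, from -1.90 to 0.55 for Ifi203-ps and from -1.42 to 0.69 for Gvin-ps7, and that of Gm43712 ran from -0.71 to 0.44.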

How the data were processed

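Polyadenylated RNA of 6 mouse hearts was measured, 3 control and 3 knockout, as grouped by the sample titles. Per the labels' protocols, libraries were made by oligo(dT)-primed reverse transcription and tagmentation. The submitters' processing notes name mm39 and, without roles, edgeR 4.0.16, featureCounts, STAR 2.7.11, Subread 2.1.1 and SAMtools 1.22.1. They name no annotation release, strand setting or rule for reads that map to several places. The deposited table, per the file headers, holds estimated counts (not all whole numbers) and CPM from the authors. Its 92 spike-in rows held 0 counts.

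Counts were rounded and tested with edgeR 4.0.16 (R 4.3.3; glmQLFit and glmQLFTest, TMM scaling, two-sided, Benjamini-Hochberg over all genes, threshold 0.05), for genes at 1 CPM or more (deposited values) in 3 or more of the 6 libraries. Alternatives were DESeq2 1.42.0, limma 3.58.1 on log2(CPM + 0.5) or log2(CPM + 1), RLE scaling, scaling without mitochondrial genes and copies, other filters, a replicate block and leaving out each heart. Sequences were the GENCODE M21 transcripts, matched by gene ID and compared with blastn 2.17.0 over at least 50% of the length, and aligned with Biopython 1.88. The identity to a parent is that of the single best matching block, which can be shorter than the matched length. Named were all copies, the 12 other members with the highest control mean, the 5 with the smallest p in each direction, rows beside the minimum, and matching mitochondrial and parent genes, and the remaining members were added to account for all 27. The parent of 1 member is not reported here. Members and lists were chosen with earlier results of these data known. The p-values of edgeR set the group difference against the spread between these hearts, moderated over all genes. The exact p-values come from the splits of the 6 hearts into groups of 3.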

Additional observations from a re-analysis of the deposited data

How the results depend on the processing

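No pseudogene was called at an adjusted p under 0.05 in edgeR or in any of the alternatives. Of 313 fold changes of single pseudogenes under the alternatives, 296 kept their direction and 17, in 7 pseudogenes, did not, and the cause was not tested. The reversals were Gm28437 (0.0072 with no filter on low values, 0.15 in limma with either pseudocount, and -0.21 to 0.17 leaving out a heart), 2310040G07Rik (0.0612 and 0.0529 in limma with pseudocounts of 0.5 and 1, and -0.44 to 0.12 leaving out a heart), Gm43712 (0.0265 and 0.0245 in limma), and, leaving out a heart, Gvin-ps7 (-0.73 to 0.0286, the latter without knockout heart 3), Gm28439 (-0.55 to 0.0147, without knockout heart 3), Gm16332 (-0.25 to 0.73, the former without knockout heart 1) and Gm19196 (-0.20 to 0.35, the former without control heart 2). The median log2 fold change of the tested pseudogenes stayed between -0.47 and -0.10. With the mitochondrial genes taken out of the denominator, the difference in share between knockout and control became -2.21 points for all pseudogenes and -2.21 for the copies. Neither value was recomputed leaving out a heart, and on that denominator control heart 2 was the highest heart and knockout heart 3 the lowest. The difference in copies per 1000 mitochondrial counts was 37.6 and ranged from 12.2 to 57.5 leaving out a heart.

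Genes called over the whole table numbered 0 in edgeR (705 at an unadjusted p under 0.05), 15 in DESeq2, 133 with no filter, 1 in limma with a pseudocount of 1, 5 with the replicate block, and 0 to 1 leaving out a heart, with 1 without knockout heart 3. For Ybx1 the log2 fold change was -2.41 in DESeq2 (adjusted p = 2.05e-16), -2.39 in edgeR with no filter (adjusted p = 1.06e-12), -2.28 in limma with a pseudocount of 1 (adjusted p = 0.0487) and -2.44 with the replicate block (adjusted p = 0.00424), and -2.60 to -2.18 leaving out a heart (adjusted p in edgeR = 0.0150 without knockout heart 3 and 0.180 to 0.836 in the other 5). In limma with a pseudocount of 0.5 it was -2.28 (adjusted p = 0.0508). Correlations of same-numbered hearts, on values centred within each group, were -0.112, 0.452 and 0.564, and control heart 1 correlated best with knockout heart 3. Centred values of so few hearts cannot decide whether same-numbered hearts are pairs. With the replicate block 1807 genes had an unadjusted p under 0.05 in edgeR, against 705 without it. The 17 pseudogenes outside the mitochondrial copies rested on 3 to 131 counts per library.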
